A study of Mus musculus with 6 samples.

Results

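The immunoglobulin kappa locus on mouse chromosome 6 was examined in 6 RNA-seq libraries of cultured T cells. Members were taken by name, as Igkc, the Igkj genes and the Igkv genes. Estimated counts were summed per gene, and a gene was kept when its total over all 6 libraries was at least 10. Of 110 kappa genes in the table, 87 passed this minimum, out of 38483 genes in all. They were Igkc and 86 Igkv genes, and each was represented by 1 transcript. The minimum used the level over both genotypes together, not the difference between them. A gene could still pass it through 1 genotype alone, so counts over the members are given as a description.

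The cells were CD4+CD62L+ T cells selected from spleens of B10.RIII mice and grown under Th17 polarization. Mice were IL-17A-/- Knockout (KO, 3 libraries) or IL-17A+/+ wild-type (WT, 3 libraries). Every culture of both genotypes ran for 3 days and held IL-23 and IL-6, both at 10 ng/ml, and 1 ng/ml TGF-β. Each also held antibodies to IFN-γ and to IL-4, at 10 µg/ml apiece. Libraries carried the replicate numbers 1 to 3 in both genotypes, and KO and WT libraries of the same number are called a pair. The labels call the replicates biological and say nothing of shared animals, so p-values measure only the spread between these samples.

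Kappa light chains are the commoner kind of antibody light chain in mice. In developing B cells, recombination joins 1 Igkv segment to 1 Igkj segment, and splicing then links the joined exon to Igkc, the single constant exon. A rearranged B cell therefore transcribes 1 V segment together with Igkc, and a B cell population holds many different V segments. V segments that lie in the opposite orientation to Igkc join by inversion, and the others by deletion. Conventional T cells rearrange T cell receptor genes instead, and plasma cells hold far more light chain RNA per cell than resting B cells.

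The deposited models of the locus ran on GRCm38 from the most distant Igkv member, starting at position 67555636, to Igkc at chr6:70726435-70726757 on the plus strand. The Igkc model was 323 nt long and ended at the stop codon, at 70726757. In the GENCODE M21 annotation the gene continued through a 3′ untranslated region to 70726966. V models were 276 to 371 nt long. The J segments are shown first because V segments join to them, and because they had no measurable signal here. They were read from the GENCODE M21 transcripts, plus strand. Capitals mark the match to TTCNGNNNNGG, searched on that strand, which in J segments covers the codons of the Phe-Gly-X-Gly turn.
Igkj1, chr6:70722562-70722599: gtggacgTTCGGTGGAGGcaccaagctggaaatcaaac
Igkj2, chr6:70722916-70722958: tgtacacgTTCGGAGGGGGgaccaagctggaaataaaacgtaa
Igkj3, chr6:70723223-70723258: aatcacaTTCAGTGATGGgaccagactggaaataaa
Igkj4, chr6:70723548-70723585: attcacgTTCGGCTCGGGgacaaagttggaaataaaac
Igkj5, chr6:70723886-70723927: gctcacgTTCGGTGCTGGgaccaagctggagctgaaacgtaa
Igkj3 departs from the turn after its phenylalanine codon, and it is known as the non-functional J segment of the mouse. All 5 Igkj genes were listed at 0 in every library. The table held 57 transcripts under 50 nt, and none of them had any count, so a value of 0 says nothing about J use. The constant exon to which splicing links the joined exon, Igkc, began as follows.
Igkc, first 60 bases: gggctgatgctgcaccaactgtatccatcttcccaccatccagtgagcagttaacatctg

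V segments of 1 family resemble each other closely, which limits how well a read can be given to 1 of them. Among 78 V members with a GENCODE M21 transcript ending at the deposited 3′ end, the median identity to the nearest other member was 93.4%, with a range of 74.1 to 98.6%. For 36 of them the nearest member was at least 95% identical. A similar and a more distant neighbour are shown by the last 120 bases of the V segment, the stretch that ends near the join. These genes are shown because Igkv8-28 had the largest fitted change among the V genes that passed a test below, and Igkv14-126 the highest mean level. Capitals mark the bases that differ within a pair of sequences.
Igkv8-28, chr6:70143593-70143897, minus strand: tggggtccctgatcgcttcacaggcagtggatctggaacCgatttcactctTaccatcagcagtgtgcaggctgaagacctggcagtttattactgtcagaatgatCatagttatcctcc
Igkv8-19, chr6:70340876-70341180, minus strand: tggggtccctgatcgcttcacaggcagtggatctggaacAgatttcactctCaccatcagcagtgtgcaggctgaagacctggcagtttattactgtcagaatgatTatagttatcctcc
Igkv14-126, chr6:67896177-67896642, plus strand: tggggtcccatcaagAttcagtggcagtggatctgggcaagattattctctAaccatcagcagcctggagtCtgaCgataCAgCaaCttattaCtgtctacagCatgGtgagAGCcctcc
Igkv14-111, chr6:68256404-68256869, plus strand: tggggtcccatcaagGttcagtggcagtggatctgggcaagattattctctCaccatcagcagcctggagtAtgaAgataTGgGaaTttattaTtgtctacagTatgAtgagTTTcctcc
Igkv8-28 and Igkv8-19 differed at 3 of these 120 bases and were 97.7% identical over 305 aligned bases. Igkv14-126 and Igkv14-111 differed at 14 of the 120 bases and were 91.5% identical over 353 aligned bases.

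Library totals were similar, at 47573479 to 49743762 estimated counts in KO and 47335736 to 48278239 in WT. Levels are given as CPM, counts per 1000000 counts of a library size scaled by TMM, and a value of 0 for a transcript of 340 to 370 nt allowed up to 0.135 to 0.156 CPM. That limit is 3 reads, or 6.92 estimated counts at about 2.31 per read, and covers counting error only. Il17a, the targeted gene, stood at 1.11, 0 and 0.0202 CPM in KO and at 161, 211 and 108 CPM in WT. Libraries also differed in ways the genotype labels do not give. Xist, expressed from the inactive X chromosome, was at 2.58, 0 and 627 CPM in KO and 567, 622 and 664 CPM in WT. Ddx3y, on the Y chromosome, was at 44.5, 38.0 and 0 CPM in KO and 0.452, 0 and 0 CPM in WT. Pairs 1 and 2 therefore differed in sex-linked transcripts as well as in genotype, and pair 3 did not. The genes of the CD4 T cell list (Cd3d, Cd3e, Cd3g, Cd4, Cd5, Cd28, Lck and Cd2) were present in every library. They summed to 3225 to 3891 CPM in KO and 3188 to 4057 CPM in WT. Only Cd4 among them sets CD4 T cells apart from CD8 T cells, so the sum is a level of T cell genes. Cd4 was at 246, 634 and 380 CPM in KO and 523, 580 and 490 CPM in WT. In KO replicate 1 it lay below Cd8a, which was at 425 CPM there.

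Kappa transcripts were present in every culture, and all 3 KO libraries held more of them than any WT library. Igkc, the constant exon common to every kappa chain, was at 256, 247 and 265 CPM in KO and at 128, 122 and 89.2 CPM in WT. The KO libraries lay close together, while WT replicate 3 was the lowest, and the genotypes did not overlap. The means were 256 ± 8.94 CPM in KO and 113 ± 20.8 CPM in WT (SD, n = 3 each), with pair ratios of 2.00, 2.03 and 2.97. These values rest on 12062 to 13105 estimated counts in KO and 4271 to 6230 in WT. The ratio of 2.97 was that of pair 3, whose sex-linked transcripts matched. No other pair matched in them, and any part of sex in the kappa difference was not tested.

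**Figure D1:**
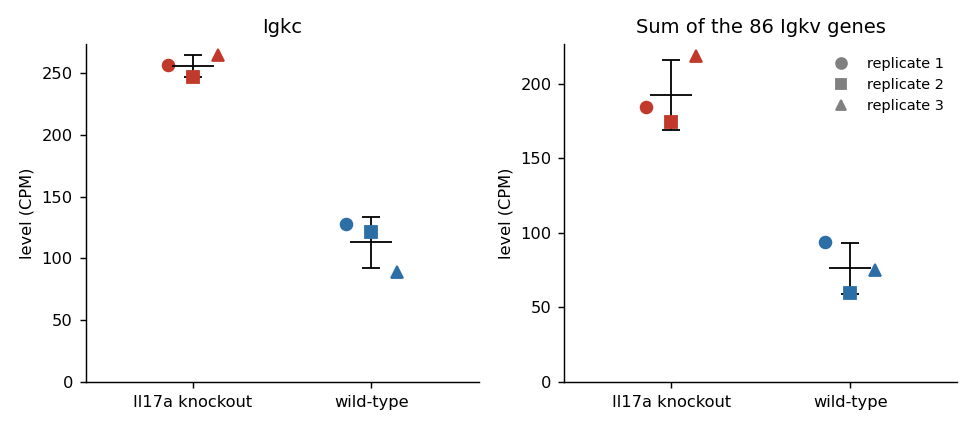
Levels in CPM of Igkc (left panel) and of the 86 Igkv genes summed (right panel), in 3 KO libraries and 3 WT libraries, with the symbol giving the replicate number; the long line is the mean and the bar 1 SD. In both panels every KO library lies above every WT library.

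The call for Igkc depended on the test. In edgeR's quasi-likelihood test without a replicate term, the log2 change was 1.18 (SE 0.17), with an edgeR adjusted p of 1.00 and an unadjusted one of 2.27e-04. DESeq2 with the replicate number as a block gave 1.19 (SE 0.15, adjusted p = 1.71e-11), and Igkc rose in that test. Over all alternatives the log2 change ran from 1.00 to 1.30 and the adjusted p from 1.52e-11 to 1.00. In bulk RNA a larger share of cells that carry kappa transcripts and more kappa RNA per such cell cannot be told apart.

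The V segments, which encode the antigen-binding end of the chain, were also higher in KO when summed. The 86 V genes together were at 184, 174 and 219 CPM in KO and at 94.0, 59.6 and 75.3 CPM in WT. Again no KO library overlapped a WT library, and WT replicate 2 was the lowest. The mean was 192 ± 23.3 CPM in KO and 76.3 ± 17.2 CPM in WT (SD, n = 3 each), with pair ratios of 1.96, 2.92 and 2.91. The V sums held 8526 to 10807 estimated counts in KO and 2641 to 4572 in WT.

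Divided by length, the constant exon exceeded the V segments in every library. Igkc over the V sum, both in CPM per kb, was 1.47, 1.50 and 1.28 in KO and 1.44, 2.18 and 1.26 in WT. WT replicate 2 stood above the other 5 libraries, and pairs 1 and 3 had nearly equal ratios in both genotypes. A V segment in the deposited models is the germline stretch alone, so reads across the V-J join may be missing from it. That share was not measured.

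The number of V genes detected also differed between libraries. V members with at least 10 estimated counts numbered 77, 69 and 69 in KO and 65, 44 and 56 in WT. Those with under 0.5 of a count numbered 3, 10 and 10 in KO and 12, 25 and 15 in WT. Every KO library detected more V genes than any WT library, and WT replicate 2, with the lowest V sum, detected the fewest. These counts were not thinned to a common V depth, and the V sums differ between libraries as given above.

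Single V genes were low, and most of them were higher in KO without passing a test. The V members had totals of 13.4 to 2698 estimated counts over the 6 libraries, with a median of 322. At the low end a gene rests on very few reads, because of the worth of a read given above. The minimum total of 10 is then about 4.3 reads. Just inside it were Igkv9-129 with a total of 13.4, Igkv18-36 with 16.1 and Igkv4-92 with 24.0. Just outside were Igkv9-123 with 9.61, Igkv7-33 with 3.95 and Igkv17-134 with 3.78. A minimum of 50 would keep 75 genes instead of 87.

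After edgeR's filter on low counts, 67 kappa genes were tested, Igkc and 66 V genes, and 20 V members were not. In edgeR without a replicate term, 61 of the 67 had a log2 change above 0 and 6 below, against 52.4% above 0 among all genes tested. The median log2 change was 1.35 for the kappa genes and 0.01 for all genes. None passed an adjusted p of 0.05 in edgeR, nor did any of the 15121 genes tested. Il17a, the targeted gene, was thus not called either, so a count of 0 here does not show that a gene was unchanged. Of the 67, 17 had an unadjusted p under 0.05, all higher in KO, against 0.813% of all genes tested. All 3 KO libraries lay above all 3 WT libraries for 19 of the 67 genes, against 3.01% of all genes tested, and all 3 lay below for none.

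Within pairs the same picture held for most genes. Of the 67 tested genes, 40 were higher in KO in all 3 pairs, against 16.6% of all genes tested, 22 in 2 pairs and 5 in 1 pair. The median log2 ratio (CPM + 0.5) over the tested genes was 0.75, 0.83 and 1.08 in pairs 1, 2 and 3. Of the 20 untested members, with totals of 13.4 to 217 estimated counts, 16 had a higher mean in KO and 4 were higher in KO in every pair.

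**Figure D2:**
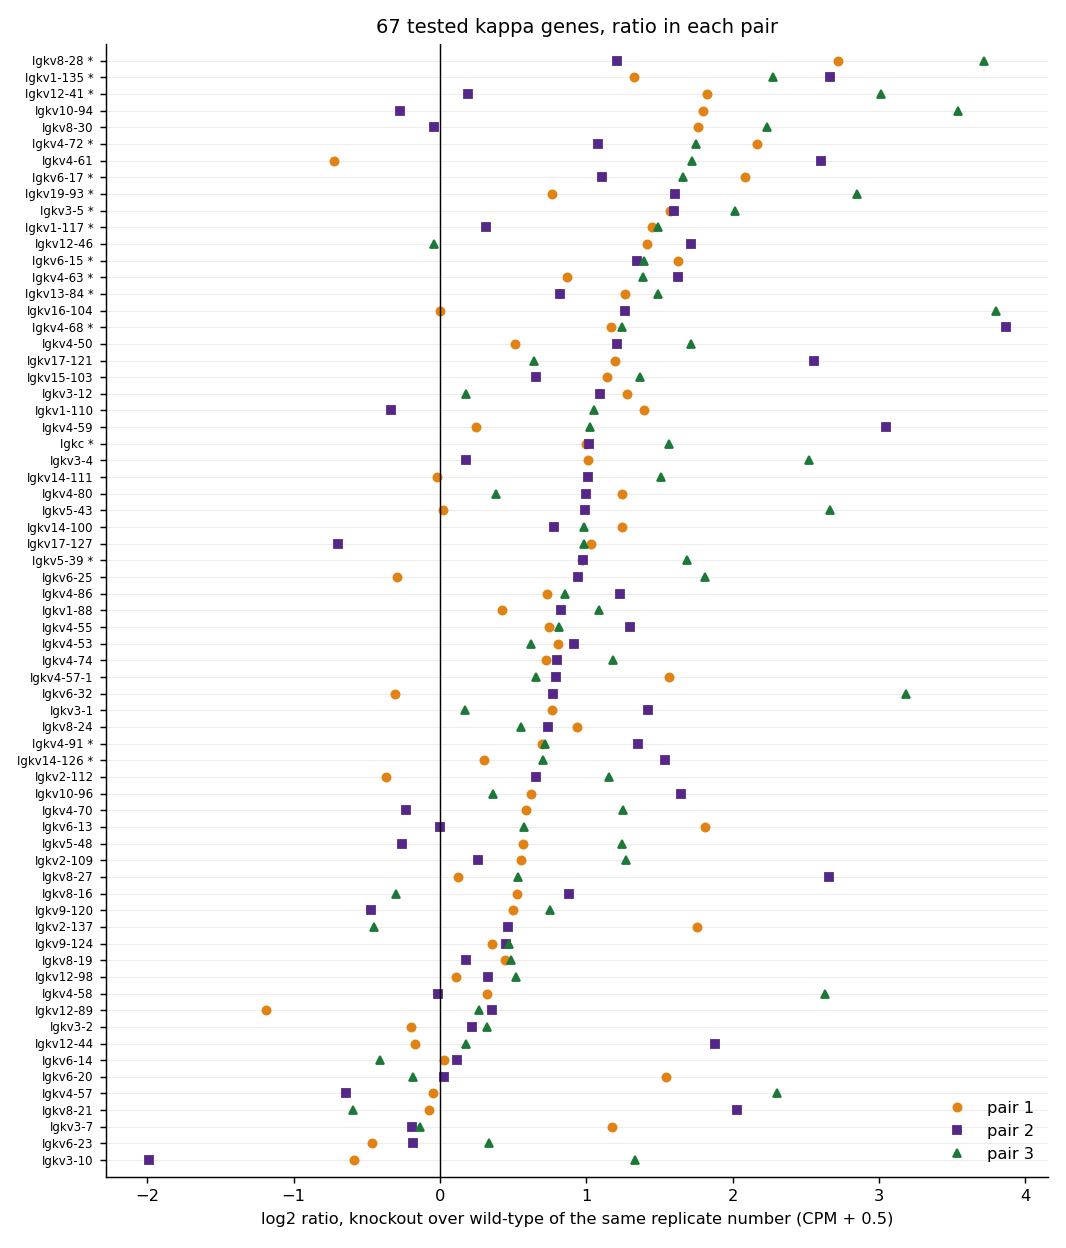
Log2 ratio of KO over WT (CPM + 0.5) within each of the 3 pairs for the 67 tested kappa genes, ordered by the median over pairs; an asterisk marks a gene that passed DESeq2 with the replicate number as a block, and the vertical line marks no difference. Most points lie right of the line, 40 genes have all 3 points there, and the points of single V genes scatter widely.

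With the replicate number as a block, DESeq2, which was picked to name genes with its earlier calls on these data known, called 16 of the 67 genes higher in KO and none lower, against 1.02% higher among all genes tested. The adjusted p was undefined for 1 further gene. Igkc and 15 V genes made up the 16. All 16 were higher in KO in every pair, and for 11 the genotypes did not overlap. The fit chose them on these same values, so both counts are a description. edgeR and limma-voom, each with and without the block, called 0 of the 67 and 0 of all 15121 genes tested, and so not Il17a either. On simulated data of this design DESeq2 passed more unchanged genes than its threshold allows, and more than edgeR did. Those data came from a single draw per design with edgeR's own estimates of spread, which limits the comparison between the tools. DESeq2 without the block called 4 higher in KO, against 0.0529% of all genes tested. In edgeR with the block, 33 were higher at an unadjusted p under 0.05, against 4.42% of all genes tested. The paired DESeq2 count was 12 without pair 1, 12 without pair 2 and 5 without pair 3, against 0.63%, 0.759% and 0.578% of all genes tested. Igkc, Igkv1-135 and Igkv8-28 passed in all 3 of these fits. With no filter on low counts it was 14, against 0.608%. When counts were first divided by the worth of a read, 9 of the 16 passed, against 0.911% of all genes tested, and the other 7 were Igkv14-126, Igkv4-91, Igkv1-117, Igkv19-93, Igkv5-39, Igkv13-84 and Igkv4-63.

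The V genes that passed with no overlap between genotypes came from several families. Igkv6-15 was at 5.49, 3.80 and 3.28 CPM in KO and 1.44, 1.20 and 0.940 CPM in WT. The libraries within each genotype lay close together, and it rose by a log2 change of 1.79 (SE 0.36, DESeq2 adjusted p = 1.12e-04). Igkv6-17, of the same family, was at 7.98, 1.98 and 2.93 CPM in KO and 1.50, 0.654 and 0.585 CPM in WT. KO replicate 1 was the highest, with 51.0% of the summed CPM, and the log2 change was 2.12 (SE 0.40, DESeq2 adjusted p = 3.80e-05). Igkv1-135, among the most distant segments from Igkc, was at 9.25, 5.11 and 3.64 CPM in KO and 3.39, 0.383 and 0.355 CPM in WT. WT replicate 1 came close to the lowest KO library, and the log2 change was 2.79 (SE 0.51, DESeq2 adjusted p = 1.35e-05).

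Igkv4-72 was at 2.95, 1.08 and 4.21 CPM in KO and 0.267, 0.248 and 0.898 CPM in WT. It rose by a log2 change of 2.59 (SE 0.54, DESeq2 adjusted p = 2.79e-04), with KO replicate 2 only just above WT replicate 3. Igkv3-5 was at 2.21, 1.84 and 2.79 CPM in KO and 0.411, 0.271 and 0.313 CPM in WT. Both genotypes were even, and the log2 change was 2.77 (SE 0.53, DESeq2 adjusted p = 5.67e-05). Igkv3-10, its nearest relative, was lower in KO in 2 pairs, at 1.95, 0.0409 and 1.60 CPM in KO and 3.18, 1.65 and 0.334 CPM in WT. Summed, Igkv3-5 and Igkv3-10 were at 4.16, 1.88 and 4.39 CPM in KO and 3.59, 1.92 and 0.648 CPM in WT, which overlapped.

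Igkv8-28 had the largest fitted change among the 16. It was at 3.34, 0.655 and 6.92 CPM in KO, against 0.0821, 0 and 0.0627 CPM in WT. The WT libraries lay below the limit of 3 reads, KO replicate 3 held 62.6% of the summed CPM, and the log2 change was 6.20 (SE 0.80, DESeq2 adjusted p = 3.41e-11). Since few WT reads lie behind it, the size of that change is poorly fixed. Added to Igkv8-19, the near-identical segment printed above, it came to 6.98, 1.62 and 9.11 CPM in KO and 2.63, 0.789 and 1.48 CPM in WT. KO replicate 2 then lay within the WT range, while KO stayed higher in every pair.

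Other called genes were carried by 1 or 2 libraries. Igkv12-41 was at 5.71, 0.123 and 7.61 CPM in KO and 1.25, 0.0451 and 0.501 CPM in WT, so KO replicate 2 lay below 2 of the WT libraries. Its log2 change was 2.77 (SE 0.60, DESeq2 adjusted p = 6.27e-04). Igkv4-68 was at 0.997, 15.01 and 4.15 CPM in KO and 0.164, 0.564 and 1.46 CPM in WT. KO replicate 2 held 67.2% of its summed CPM, and the log2 change was 2.91 (SE 0.60, DESeq2 adjusted p = 2.51e-04).

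Igkv1-117, one of the more abundant V genes, was at 9.03, 2.90 and 5.71 CPM in KO and 3.00, 2.23 and 1.71 CPM in WT. KO replicate 2 lay just under WT replicate 1, and the log2 change was 1.24 (SE 0.38, DESeq2 adjusted p = 0.0476). Igkv19-93, typed as a pseudogene in GENCODE M21, was at 3.85, 2.39 and 5.06 CPM in KO and 2.05, 0.451 and 0.272 CPM in WT. Its genotypes did not overlap (log2 change 2.44, SE 0.63, DESeq2 adjusted p = 0.00853). The remaining called genes were Igkv5-39, Igkv13-84 and Igkv4-63, with log2 changes of 1.55, 1.74 and 3.74 and DESeq2 adjusted p of 0.0114, 0.0201 and 0.0336. Their KO libraries ran from 0.971 to 5.63 CPM and their WT libraries from 0 to 1.40 CPM.

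Each called V gene was also summed with its nearest member, since a read may have been given to either. For 13 of the 15 called V genes a nearest member was available, 77.4 to 97.7% identical and at least 95% for 9 of them. The sum of the gene and its nearest member was higher in KO in all 3 pairs for 12 of the 13, and the exception was Igkv3-5 with Igkv3-10. For 7 of the 13 sums the genotypes did not overlap. Each sum holds a gene that was itself higher in KO in every pair, so these counts are a description.

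Several of the most abundant V genes did not pass DESeq2 with the block in all 3 pairs together. Igkv10-96 was at 8.70, 4.40 and 5.44 CPM in KO and 5.48, 1.06 and 4.12 CPM in WT. Igkv12-44 was at 2.66, 4.07 and 8.28 CPM in KO and 3.06, 0.744 and 7.25 CPM in WT. Igkv8-21 was at 2.74, 2.37 and 4.05 CPM in KO and 2.92, 0.203 and 6.35 CPM in WT. All 3 overlapped between genotypes. In pair 1 Igkv12-44 and Igkv8-21 were lower in KO, and Igkv8-21 was lower in KO in pair 3 as well. The remaining abundant genes, Igkv1-110, Igkv14-111, Igkv6-32, Igkv9-120, Igkv5-43 and Igkv3-4, had means of 3.68 to 5.79 CPM in KO and 1.26 to 2.77 CPM in WT. Among these 9 genes, Igkv5-43 and Igkv6-32 passed without pair 1 (DESeq2 adjusted p = 0.0160 and 0.0182) and Igkv3-4 without pair 2 (0.0438).

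Replicate number 2 had a V makeup of its own in both genotypes. Igkv14-126 was at 1.06, 37.4 and 2.98 CPM in KO and 0.760, 12.6 and 1.63 CPM in WT. Igkv4-91 was at 1.21, 19.7 and 3.24 CPM in KO and 0.554, 7.40 and 1.78 CPM in WT. Both genes were highest in replicate 2 of each genotype, so KO and WT overlapped while each of the 3 pairs was higher in KO. Their log2 changes in DESeq2 with the block were 1.02 (SE 0.30, adjusted p = 0.0277) for Igkv14-126 and 1.14 (SE 0.29, adjusted p = 0.00737) for Igkv4-91.

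As a share of the V sum these genes, picked out after their values were seen, made up 1.23, 32.7 and 2.84% in KO and 1.40, 33.5 and 4.52% in WT. The share in replicate 2 was thus nearly equal in both genotypes. Without them the V sum was 182, 117 and 212 CPM in KO and 92.6, 39.7 and 71.9 CPM in WT, and the genotypes still did not overlap. What replicate number 2 had in common was not tested.

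**Figure D3:**
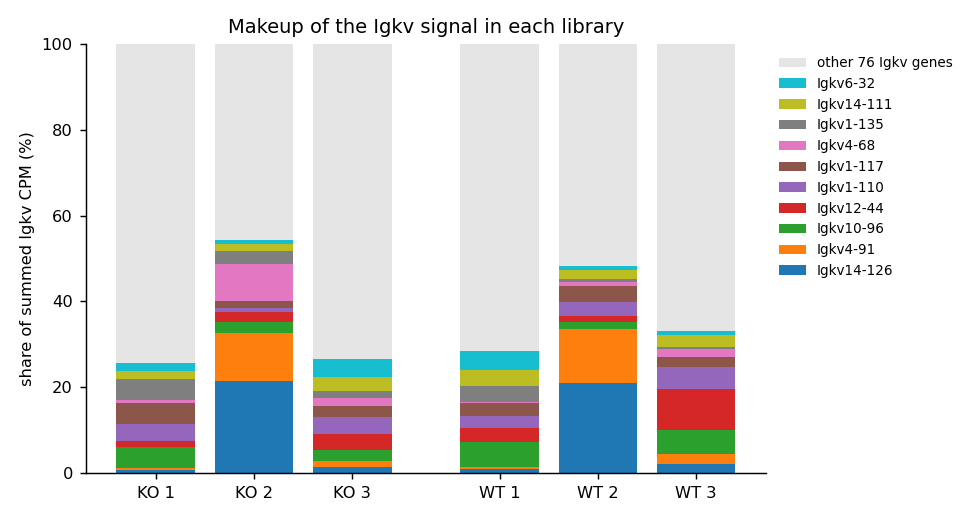
Share of the summed Igkv CPM, in percent, taken by the 10 Igkv genes of highest mean level and by the other 76, in each KO and WT library. Igkv14-126 and Igkv4-91 together take 32.7% in KO replicate 2 and 33.5% in WT replicate 2, and 1.23 to 4.52% in the other 4 libraries.

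The evenness of V use followed the same split. The effective number of V genes, taken as the inverse of the sum of squared shares, was 44.6, 13.4 and 41.4 in KO and 40.7, 13.6 and 25.6 in WT. Replicate 2 was the least even library in both genotypes, and WT replicate 3 was less even than KO replicate 3. In WT replicate 3, Igkv12-44, Igkv8-21 and Igkv3-7 took 9.63, 8.44 and 7.72% of the V sum. In KO replicates 1 and 3 and WT replicate 1 the leading gene took 5.02, 4.28 and 5.83%.

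Some V genes had most of their signal in 1 library. For 13 V genes with a total of at least 100 estimated counts, more than 50% of the CPM summed over libraries came from 1 of them, and that library was a KO library each time. In KO replicate 2 these were Igkv14-126, Igkv4-91, Igkv4-68 and Igkv4-79, with 90.0% for Igkv4-79. In KO replicate 3 they were Igkv5-43, Igkv10-94, Igkv16-104, Igkv8-28, Igkv4-70 and Igkv5-45, and in KO replicate 1 Igkv6-17, Igkv2-137 and Igkv6-13. Over all 86 V members the highest library was KO replicate 1, 2 or 3 for 28, 13 and 33 genes and WT replicate 1, 2 or 3 for 7, 1 and 4 genes. Genes were kept by their totals, to which KO libraries gave more. Both tallies are thus a description and were not set against all genes.

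Families, orientation and position along the locus were compared by sums. The 86 V members fell into 18 families, and the family sum was higher in KO in all 3 pairs for 15 of them, with no overlap for 9. Among those 9, Igkv13, Igkv15, Igkv16 and Igkv19 hold 1 member each, so their sums repeat single genes counted above. No share over all genes was taken for family sums. Igkv4, the largest family with 22 members, summed to 28.1, 59.1 and 43.8 CPM in KO and 14.6, 13.1 and 12.9 CPM in WT. Igkv1 summed to 29.0, 11.4 and 18.8 CPM in KO and 9.34, 4.60 and 6.10 CPM in WT. Both families kept every KO library above every WT library.

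Igkv14, which holds Igkv14-126, summed to 6.63, 41.3 and 11.2 CPM in KO and 4.95, 14.7 and 4.16 CPM in WT, and overlapped. V genes on the same strand as Igkc, 35 of the 86, summed to 84.4, 72.3 and 79.8 CPM in KO and 39.3, 30.0 and 28.1 CPM in WT. The 51 on the opposite strand, which join by inversion, summed to 99.9, 102 and 139 CPM in KO and 54.7, 29.7 and 47.2 CPM in WT. Neither orientation overlapped between genotypes.

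Split into 3 blocks by position, the 29 V genes farthest from Igkc summed to 76.5, 90.3 and 74.5 CPM in KO and 35.6, 35.1 and 23.5 CPM in WT. The middle 29 summed to 48.6, 54.2 and 81.7 CPM in KO and 26.1, 11.3 and 25.7 CPM in WT. The nearest 28 summed to 59.2, 29.8 and 62.5 CPM in KO and 32.2, 13.3 and 26.0 CPM in WT. Every block was higher in KO in each pair, and the nearest block alone overlapped, KO replicate 2 lying below WT replicate 1. Differences between families, strands or blocks in the size of the change were not tested.

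**Figure D4:**
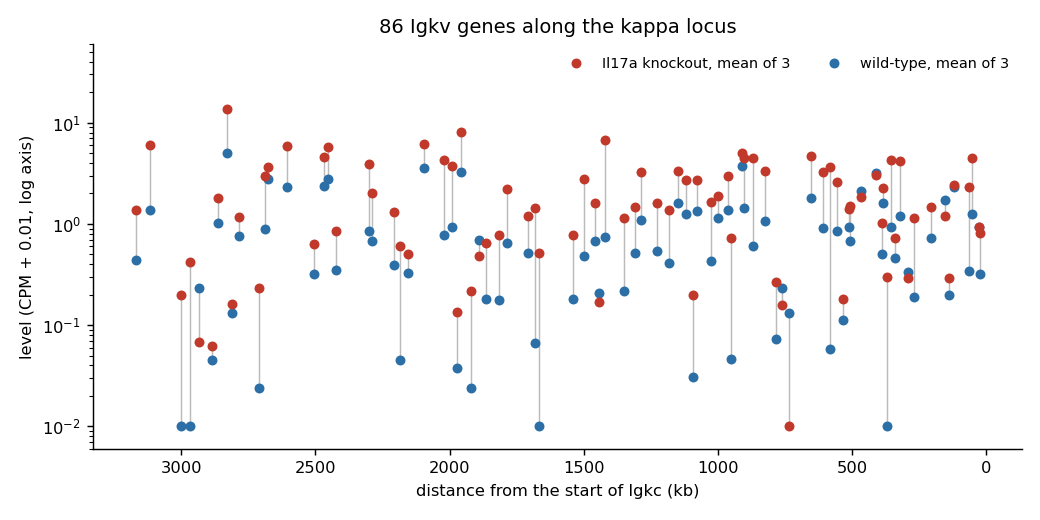
Mean level (CPM + 0.01, log axis) of each of the 86 Igkv genes in 3 KO libraries and in 3 WT libraries against its distance from the start of Igkc in kb, with a grey line joining the 2 means of a gene. Genes with a higher KO mean lie along the whole locus, and genes at the bottom rest on few reads.

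Genes of B cells were set beside the kappa genes, since the cultures were labelled as T cells. Of 16 B cell genes, all tested, 8 rose in DESeq2 with the block, against 1.02% of all genes tested higher and 2.52% in either direction, and none fell. These were Ms4a1, Cd22, Blk, Fcrla, Cd72, Blnk, Bank1 and Pou2af1. edgeR without the block called 0 of the 16, with 2 at an unadjusted p under 0.05, and it called 0 genes of every other list below. The summed level of the 16 was 731, 372 and 166 CPM in KO and 385, 149.6 and 143 CPM in WT, and none was at 0 in all libraries. Replicate 1 was the highest in both genotypes, and the sums overlapped.

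Among KO libraries Igkc did not follow these genes, while among WT libraries it fell from replicate 1 to 3 as their sum did. Cd79a, a signalling chain of the B cell receptor, was at 109, 51.7 and 13.2 CPM in KO and 51.6, 19.5 and 14.1 CPM in WT. KO replicate 3 thus had the most Igkc and the least Cd79a among KO libraries. Over the 16 genes the median log2 ratio was 0.95, 1.42 and 0.21 in pairs 1, 2 and 3, against 1.00, 1.02 and 1.56 for Igkc on the same scale. The part of B cell number in the kappa difference was not tested.

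Heavy chain genes did not share 1 order over libraries. Ighm, the constant gene of IgM, was at 703, 439 and 179 CPM in KO and 421, 232 and 184 CPM in WT, in the order of the B cell genes. Ighg3 was also highest in replicate 1 of each genotype, at 8.62, 6.36 and 3.18 CPM in KO and 4.33, 2.68 and 3.34 CPM in WT. Ighg2c was at 3.50, 25.0 and 99.5 CPM in KO and 2.85, 1.15 and 11.4 CPM in WT. Igj, the joining chain of secreted antibody polymers and not a J segment, was at 4.61, 19.0 and 52.7 CPM in KO and 5.19, 4.92 and 13.4 CPM in WT. Ighg2c and Igj were highest in replicate 3 of each genotype, where Cd79a was lowest. Ighg1, Ighg2b and Igha were also highest there. Ighg1 was at 0.899, 5.32 and 16.0 CPM in KO and 0.452, 1.83 and 3.11 CPM in WT. Ighg2b was at 6.14, 22.7 and 75.1 CPM in KO and 4.83, 3.47 and 8.06 CPM in WT. Igha was at 34.1, 51.4 and 61.8 CPM in KO and 20.5, 10.6 and 58.0 CPM in WT.

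Of 7 tested heavy and lambda constant genes all had an edgeR log2 change above 0, and 2 rose in DESeq2 with the block, namely Ighg1 (log2 change 1.68, adjusted p = 9.27e-04) and Iglc2 (1.13, adjusted p = 4.42e-05). Iglc2, a constant gene of the other light chain, was at 54.1, 21.7 and 9.21 CPM in KO and 24.3, 7.40 and 5.68 CPM in WT. Of 8 tested plasma cell genes Igj rose (log2 change 1.28, DESeq2 adjusted p = 0.0419) and Xbp1, a secretory regulator also used by T cells, fell by 0.47 (adjusted p = 0.0271). The plasma cell genes summed to 301 to 448 CPM in KO and 323 to 646 CPM in WT, and Tnfrsf17 was at 0 in every library. Xbp1, at 163 to 303 CPM in KO and 193 to 508 CPM in WT, made up most of that sum. In edgeR without the block, 4 of the 8 tested genes had a log2 change above 0 and 4 below. The part of plasma cells in the kappa difference was not tested.

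**Figure D5:**
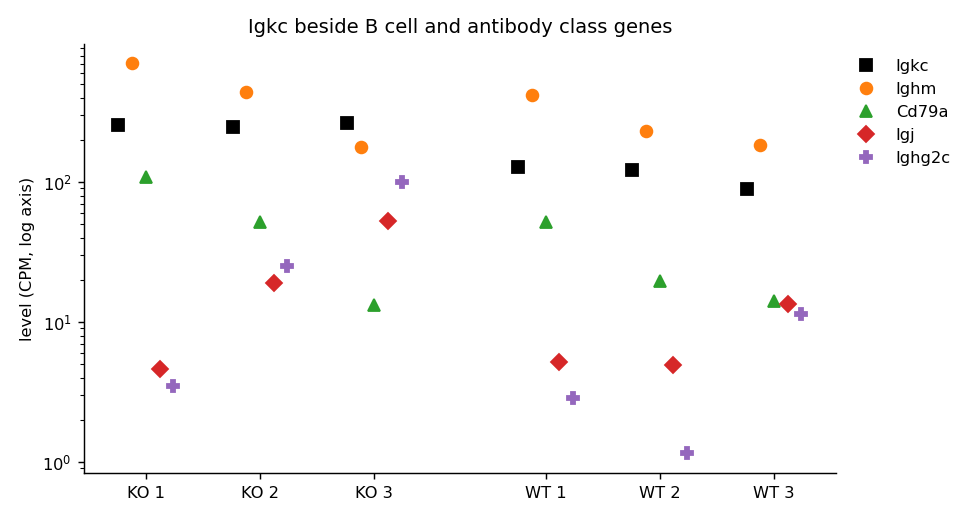
Levels in CPM, on a log axis, of Igkc, Ighm, Cd79a, Igj and Ighg2c in each KO and WT library. Igkc is nearly level among KO libraries, while among them Cd79a spans 13.2 to 109 CPM and Ighg2c 3.50 to 99.5 CPM.

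Of 6 genes of precursor B cells and of recombination, Dntt alone passed the filter on low counts. Rag2 and Igll1 were at 0 in every library, and Rag1 was at 0 in all but WT replicate 3, with 0.188 CPM. Dntt, which adds nucleotides at receptor gene joins and is also used by T cell precursors, fell by 1.40 on the log2 scale (DESeq2 with the block, adjusted p = 8.14e-11). It was at 2.07, 11.9 and 19.8 CPM in KO and 6.76, 28.8 and 46.5 CPM in WT.

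Of 13 tested factors that act on kappa promoters and enhancers, 1 rose, which is also on the B cell list. Pou2af1, the B cell coactivator of octamer-binding factors, was at 66.1, 64.8 and 47.8 CPM in KO and 47.5, 22.6 and 37.5 CPM in WT (log2 change 0.77, DESeq2 adjusted p = 0.0472). The octamer factors themselves, Pou2f1 and Pou2f2, had log2 changes of 0.00 and 0.07. Of 14 B cell receptor signalling genes 8 rose in the same test, 5 of which are also on the B cell list, and Syk, Lyn and Fcgr2b are the others.

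Some markers of further cell types also rose. Cd8a, which marks CD8 T cells, rose (log2 change 0.68, DESeq2 adjusted p = 7.02e-04) and was at 425, 62.3 and 66.1 CPM in KO and 257, 48.3 and 33.7 CPM in WT. With Cd8b1 it summed to 112 to 658 CPM in KO and 71.3 to 423 CPM in WT. Of 3 NK cell genes Klrd1 alone rose, and the 3 summed to 116 to 334 CPM in KO and 57.8 to 197 CPM in WT. Klrd1 made up nearly all of these sums, at 333, 113 and 117 CPM in KO and 197, 94.4 and 57.0 CPM in WT. Ncr1 was at 0.0977, 0.286 and 0.263 CPM in KO and 0.123, 0.180 and 0.272 CPM in WT. Klrb1c was at 0.645, 2.05 and 0.729 CPM in KO and 0.842, 0.338 and 0.481 CPM in WT. Of 5 myeloid genes Itgam, Mpeg1 and Clec7a rose, against 1.02% of all genes tested. The 5 summed to 22.6 to 174 CPM in KO and 7.46 to 88.0 CPM in WT. Mpeg1 was at 43.9, 13.1 and 3.32 CPM in KO and 13.7, 5.46 and 2.09 CPM in WT. It was highest in replicate 1 of each genotype, as Cd79a was. Lyz2, Itgam, Csf1r and Clec7a were highest in replicate 2 of each genotype. Of the 8 genes of the CD4 T cell list Cd5 and Cd2 fell by 0.56 and 0.48 (DESeq2 adjusted p = 0.00235 and 0.00701). The part of these cells in the kappa difference was not tested.

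Likeness to Igkc was ranked among tested genes outside the immunoglobulin loci, so antibody genes were left out of it. Pearson's r with Igkc over the 6 libraries was highest for Map10, Etfa and Ppp1r2, at 0.98, 0.98 and 0.97. The 6 points fall into the 2 genotypes, and r is given as a description of likeness alone.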

How the data were processed

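Stranded mRNA libraries of 3 KO and 3 WT cultures were analysed. The deposited table gives, per the file headers, an estimated count per transcript and library, and the submitters' processing notes name Bowtie2 2.1.0, eXpress 1.3.1 and GRCm38. Which annotation release and which counting settings were used is not given in the sources used here. The deposited table also gives GC content as a fraction, which entered no test. The count worth of 1 read was read from the lowest cluster of values in transcripts of 340 to 370 nt.

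Estimated counts were summed per gene over 93480 transcripts and rounded to whole numbers for testing. The first test was edgeR 4.0.16's quasi-likelihood test (R 4.3.3) without a replicate term, with its filter on low counts and Benjamini-Hochberg adjustment over all 15121 genes tested. DESeq2 1.42.0, limma 3.58.1 with voom and fits with the replicate number as a block were alternatives, and the code was tested on simulated data. Equal replicate numbers were treated as pairs, because deviations from the genotype means correlated across genes at 0.60, 0.45 and 0.64 for equal numbers and at -0.47 to -0.17 for unequal ones, above the limit of 0.1 for every pair. Deviations cancel within each genotype, so positive values for equal numbers draw negative ones for unequal numbers. Nothing in the labels says what a number stands for. "Rose" and "fell" refer to DESeq2 with that block at an adjusted p of 0.05. That fit was singled out with earlier results known, and edgeR and limma called none of the named kappa genes. Dividing counts by the worth of a read and dropping the low count filter from the paired DESeq2 fit were chosen after seeing the data.

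CPM values use TMM-scaled library sizes, and pair ratios of single genes add 0.5 CPM. Sequences came from GENCODE M21 transcripts of the same build. Of the 110 kappa genes, 108 were found there by ID. V identities came from pairwise alignment in Biopython 1.88. Named genes were Igkc, the 15 V genes of highest mean CPM, those passing DESeq2 with the block, those with most of their CPM in 1 library, those beside the minimum total, and the genes most like Igkc. The members and all gene lists were chosen with earlier results of these data known, so their counts are not independent evidence. A gene of the B cell lists is not reported here and entered no list count or sum.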

Additional observations from a re-analysis of the deposited data

How the results depend on the processing

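The Igkc log2 change was above 0 under all 21 alternatives. It passed an adjusted p of 0.05 only in DESeq2, at 1.17 without a replicate block and 1.19 with the replicate block, with or without the read-worth division and with no low count filter. Leaving out replicates gave 1.00 to 1.30, and with the replicate block 1.30, 1.27 and 1.00 without pairs 1, 2 and 3. The number of kappa genes called was 0 in edgeR, 4 in DESeq2 without the block, 16 with the replicate block, 9 with the block and read-worth division, and 14 with the block and no filter. Without pairs 1, 2 and 3 the block gave 12, 12 and 5, and edgeR without single libraries gave 0. The median log2 change of the tested kappa genes, 1.35, was 1.58 in limma-voom, 1.17, 1.93 and 1.57 in edgeR without KO replicate 3, WT replicate 1 and WT replicate 3, and 1.68 and 1.61 with the replicate block without pairs 1 and 3. It was above 0 throughout, and the causes of these shifts were not tested. For single V genes, depth limits the result: a total of 10 is about 4.3 reads, and members over 95% identical may exchange reads.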
